A study of Mus musculus with 9 samples.

Results

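The glutathione, glucuronosyl and sulfo transferases are the enzymes that couple glutathione, glucuronic acid or sulfate to drugs, hormones and products of oxidative damage. They were chosen by gene symbol alone: 63 of the 24421 genes of the deposited table have a symbol that begins with Gsta, Gstk, Gstm, Gsto, Gstp, Gstt, Gstz or Mgst (24 glutathione transferases), with Ugt1a, Ugt2 or Ugt3a (20 glucuronosyl transferases) or with Sult (19 sulfo transferases). Poly(A) RNA was sequenced from tdTomato-positive cells sorted from the kidneys of 9 mice on the C57BL/6 background, 3 in each of 3 groups. The db/m mice are heterozygous for the db mutation of the leptin receptor and served as non-diabetic controls, the db/db mice are homozygous, become obese and hyperglycemic and received vehicle, and the db/db-dapa mice are db/db mice that received dapagliflozin, an inhibitor of the glucose transporter SGLT2, at 1.5 mg/kg/day in the drinking water. Treatment with drug or vehicle lasted 8 weeks. Mice of all groups carried CreERT2 in the Slc34a1 locus and the R26tdTomato reporter and were injected with tamoxifen at 8 weeks of age, so that the label marks cells with past Slc34a1 promoter activity, that is, proximal tubule. Libraries were made from single mice, and the labels give the tissue only as kidney.

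Glutathione transferases of the alpha (Gsta), mu (Gstm), pi (Gstp), theta (Gstt), omega (Gsto), zeta (Gstz) and kappa (Gstk) classes are soluble enzymes that join glutathione to electrophiles, and the Mgst enzymes do so in membranes. UDP-glucuronosyltransferases (Ugt) sit in the endoplasmic reticulum and sulfotransferases (Sult) in the cytosol, where they add glucuronic acid or sulfate to steroids, bile acids, phenols and drugs. The proximal tubule is a main site of this chemistry in the kidney, since it takes up organic ions from blood and secretes them, often as conjugates, into the tubular fluid.

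Many of these genes arose as tandem copies, and how far a read can tell copies apart decides how a value can be read. The coding stretches below are printed from the GENCODE transcripts of GRCm38, 5′ to 3′ on the coding strand, with capitals at the positions where the aligned copies differ. They are shown because values of these copies carry the results. In Gsta1 and Gsta2, the main inducible alpha-class pair, 97.6% of aligned coding bases were identical, and 16.9% of the windows of 101 bases, the read length, held no difference at all. The 60 bases shown for Gsta1 (chr9:78241561-78241620, plus strand) and Gsta2 (chr9:78332125-78332184, minus strand) differ at 5 positions.
Gsta1: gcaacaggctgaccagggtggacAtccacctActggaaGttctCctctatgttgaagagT
Gsta2: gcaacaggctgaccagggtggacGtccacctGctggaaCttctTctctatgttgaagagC
Gstp1 and Gstp2, the pi-class genes, were 98.1% identical, and 58.5% of the windows could not tell them apart. The stretches below come from chr19:4036694-4036753 and chr19:4040988-4041047, both on the minus strand.
Gstp1: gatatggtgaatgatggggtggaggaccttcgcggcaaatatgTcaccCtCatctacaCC
Gstp2: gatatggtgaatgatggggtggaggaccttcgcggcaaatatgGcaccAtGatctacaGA
Ugt2b5, Ugt2b37 and Ugt2b38 lie in 1 cluster on the minus strand of chromosome 5, with Ugt2a3 between Ugt2b37 and Ugt2b38. Ugt2b5 and Ugt2b38 were 97.0% identical and shared 28.9% of windows, whereas Ugt2b37 was 94.7% identical to Ugt2b5 and 94.1% to Ugt2b38 and shared 1.21% of windows with each. In the 60 bases from chr5:87139768-87139827, chr5:87254232-87254291 and chr5:87423633-87423692, Ugt2b5 and Ugt2b38 have the same letters and Ugt2b37 differs at the 12 capitals.
Ugt2b5: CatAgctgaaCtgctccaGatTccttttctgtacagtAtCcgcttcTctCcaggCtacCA
Ugt2b37: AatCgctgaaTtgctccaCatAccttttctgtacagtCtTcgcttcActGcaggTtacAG
Ugt2b38: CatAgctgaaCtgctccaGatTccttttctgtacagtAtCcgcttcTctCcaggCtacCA
Ugt3a1 and Ugt3a2 on chromosome 15 were 93.2% identical, and every window of read length told them apart. Values of Ugt3a1 and Ugt3a2 are therefore the least affected among the copies. Those of Gsta1, Gstp1, Gstp2, Ugt2b5 and Ugt2b38 are uncertain as single genes.

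The promoters of the Ugt2b genes are shown because Ugt2b38 was the member called between db/db and db/m mice. In the 250 bases before the start sites given by RefSeq (GRCm38.p6), Ugt2b5, Ugt2b37 and Ugt2b38 share an identical block of 62 bases, in capitals below, which no other of the 32851 promoters in the RefSeq table holds. It is printed with the 60 bases before it, on the minus strand, from chr5:87140347-87140468, chr5:87254812-87254933 and chr5:87424213-87424334, and ends 6, 23 and 9 bases before the start.
Ugt2b5: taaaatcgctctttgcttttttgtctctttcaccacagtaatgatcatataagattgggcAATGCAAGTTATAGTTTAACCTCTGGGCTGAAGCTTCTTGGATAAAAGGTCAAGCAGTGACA
Ugt2b37: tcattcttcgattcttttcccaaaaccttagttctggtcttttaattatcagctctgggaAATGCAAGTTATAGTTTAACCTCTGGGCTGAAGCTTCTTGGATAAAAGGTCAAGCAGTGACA
Ugt2b38: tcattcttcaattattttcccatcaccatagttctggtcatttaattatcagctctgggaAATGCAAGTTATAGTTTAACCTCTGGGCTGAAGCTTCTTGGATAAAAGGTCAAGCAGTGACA
The block holds AGGTCA, the half-site read by many nuclear receptors. Searched on both strands, this motif was found in 14% of all promoters and in 16.4% of the 67 promoters of 55 members in the RefSeq table. The core of the antioxidant response element, TGACNNNGC, was found in 10.2% of all and in 4 of the 67 promoters (5.97%), those of Gsta3, Gstm5, Gstm7 and Mgst1. A match of letters is a description and does not show that a factor binds.

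The libraries held between 2733349 (db/db 1) and 9033123 (db/db-dapa 3) estimated counts, and values are given in CPM (library-scaled counts with TMM factors), in which 3 counts correspond to 1.02 CPM in db/db 1 and to 0.339 CPM in db/db-dapa 3. Slc34a1, whose locus carries the Cre, was at 3530 CPM or more in every mouse, and the 10 proximal tubule markers summed to 13340 to 14390 CPM in db/m, 16650 to 20290 CPM in db/db and 17230 to 21290 CPM in db/db-dapa mice. Transcripts of other nephron parts were present as well: Umod of the loop of Henle was at 1316 CPM and Aqp2 of the collecting duct at 295.5 CPM in db/m 3. The 7 markers of the S3 segment, the last part of the proximal tubule, summed to 724.8 to 914.9 CPM in db/m mice. The sum was 76.5 to 411.4 CPM in db/db and 271.1 to 429.2 CPM in db/db-dapa mice. Of them, 2 (Slc22a7 and Acsm3) were called lower in db/db than in db/m mice. The others were not called and did not share a direction. Slc7a13 and Cyp7b1 had log2 fold changes of -3.27 and -1.45, and Slc5a1, Slc22a13 and Aqp7 of 0.384, 0.048 and 0.055. Slc7a13 and Acsm3, with means of 390.2 and 254.9 CPM in db/m mice, made up most of the sum there. As the cells were sequenced in bulk, fewer cells of a segment and less RNA per cell cannot be told apart. The library of db/db 3 stood apart from its group: over the genes, its log2 CPM correlated with r = 0.9546 and 0.9637 with db/db 1 and 2, and with r = 0.9888 and 0.9911 with db/db-dapa 2 and 3. The other db/db mice did not form a tight pair either: db/db 2 correlated with r = 0.9812 with db/db-dapa 1 and 0.9744 with db/db 1. The smallest library, db/db 1, reached no r above 0.9744 with any mouse. Results that rest on db/db 3 are given with and without it.

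Of the 63 members, 44 reached 0.3 CPM in at least 2 of 9 mice and were tested: 22 glutathione, 15 glucuronosyl and 7 sulfo transferases. Another 13 had no count in any mouse: Mgst2, Ugt2b1, Ugt2b35, Sult1c1, Sult1e1, Sult3a1 and the Sult2a genes other than Sult2a3. A further 6 (Gstt4, Ugt2a1, Ugt2a2, Ugt2b36, Sult4a1 and Sult6b1) were above 0 in some mouse but under the filter, Ugt2a1 and Ugt2a2, which overlap, with 0.5 counts each in db/m 1 alone, rounded to 0 here. Most of the sulfo transferase family was thus not detectable at this depth.

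Compared per length, RNA levels differed widely between the members. On the length-scaled scale (counts per kilobase of the longest annotated transcript, scaled to a common total), 16 members were among the 1000 highest of 24027 genes. Ugt2b38 had a mean level of 1077, Ugt3a2 of 1040 and the phenol and catecholamine sulfotransferase Sult1d1 of 785, and together they made up 33.4% of the summed level of all members. They were followed by Gstm1 with a level of 483, Gstp1 with 436, Gsta2 with 432, Gstm5 with 423 and Gstt1 with 328. The order depended on the group: in db/db mice Sult1d1 (967), Ugt3a2 (908) and Gsta2 (798) had a higher level than Ugt2b38 (707), whereas in db/m mice Ugt2b38 was at 1473 and Gsta2 at 101.

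**Figure D1:**
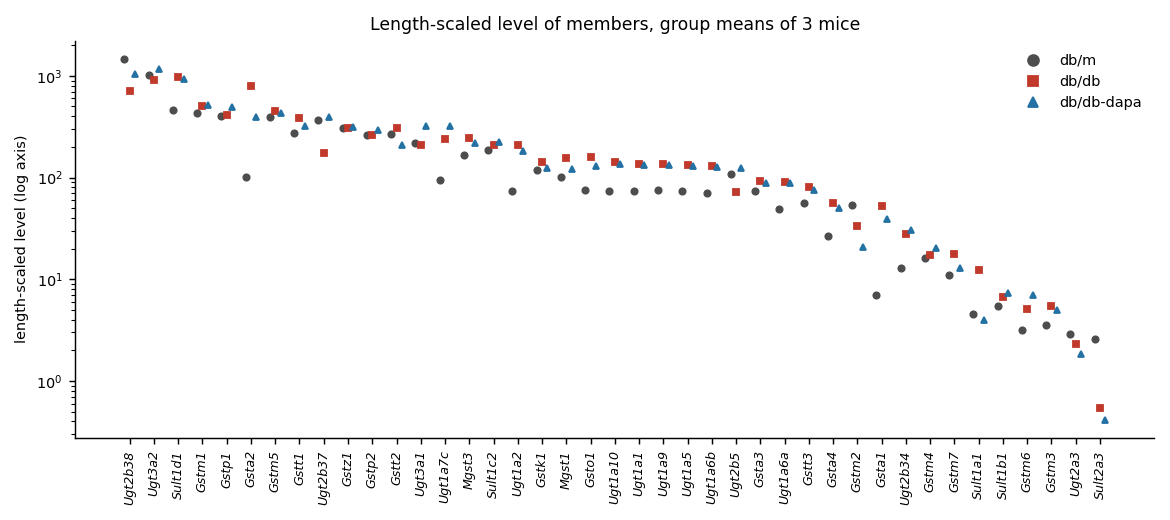
Length-scaled level (log axis) of the members with a mean of 1 or more, ordered by their mean over 9 mice; symbols are means of 3 mice for db/m (grey circles), db/db (red squares) and db/db-dapa (blue triangles). Most members keep their place in all groups, whereas Gsta2, Gsta1 and Sult1d1 lie lower in db/m and Ugt2b38 and Ugt2b37 lie lowest in db/db mice.

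A single fit gave 3 comparisons. Genes count as called where the adjusted p was below 0.1 and the log2 fold change exceeded 1 in size. Between db/db and db/m mice, 1 of the 44 members was called (Ugt2b38, lower in db/db), against 1.26% of all 15583 genes tested. At an unadjusted p under 0.05 there were 15 members, 12 higher and 3 lower in db/db, against 13.7% of all genes, and 6 members had groups that did not overlap, against 16.4% of all genes. For db/db-dapa versus db/m, 1 member was called (Ugt1a7c, higher in db/db-dapa) against 1.05% of all genes, 17 members had an unadjusted p under 0.05, 13 higher and 4 lower, against 18.2%, and 14 did not overlap, against 28.1%. With the drug (db/db-dapa versus db/db), 0 members were called by edgeR or by DESeq2, against 0.0% of all genes with edgeR, 5 members had an unadjusted p under 0.05 against 5.19%, and 3 did not overlap against 10.2%. The first comparisons share the db/m mice.

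**Figure D2:**
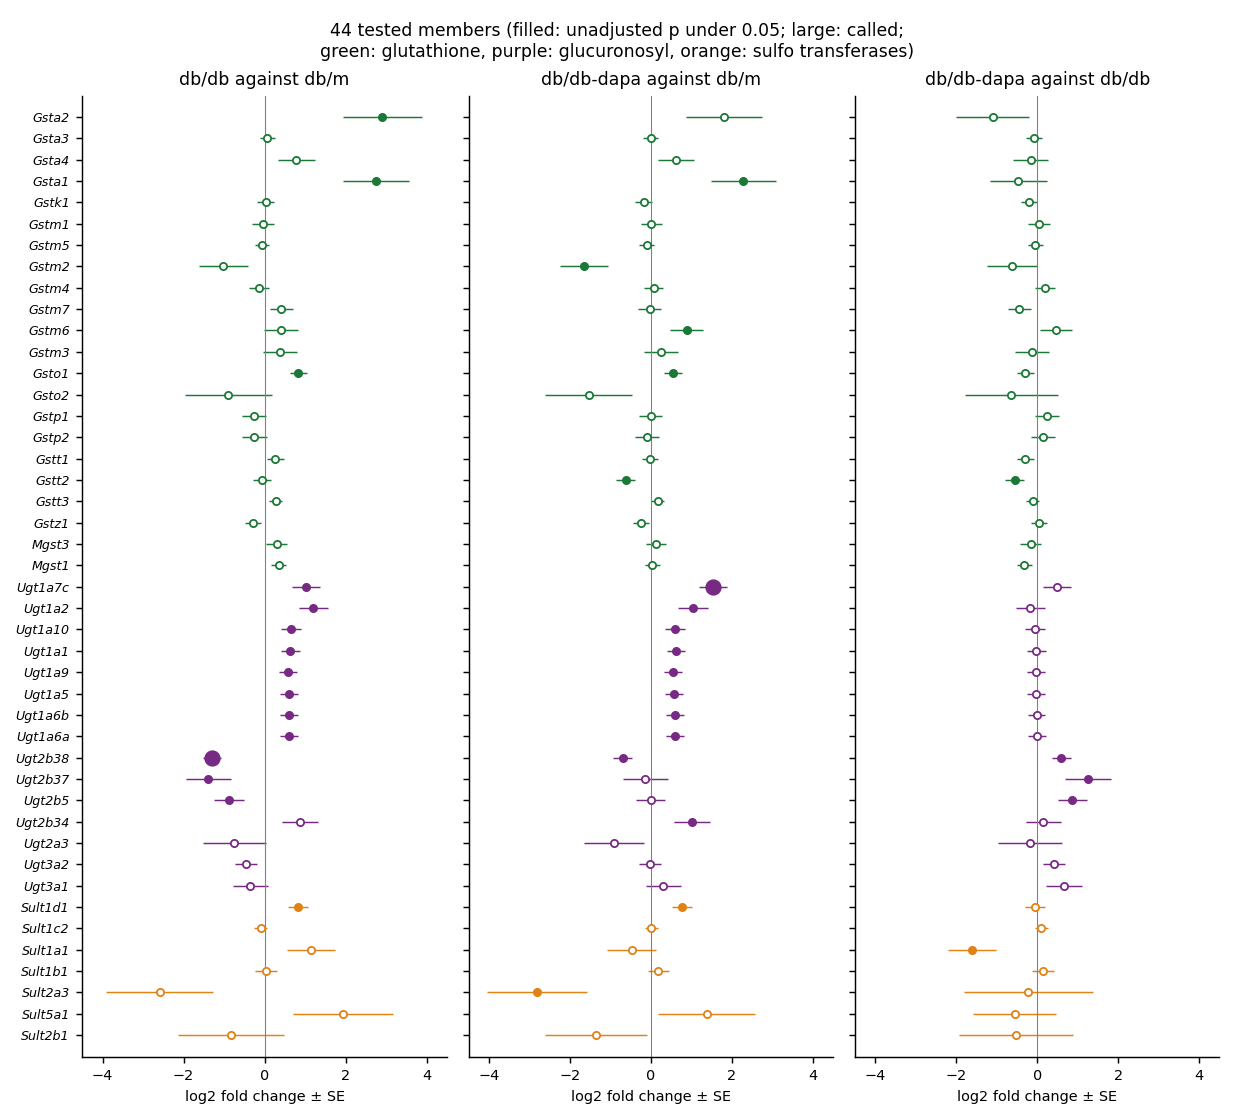
Log2 fold change with its standard error for the 44 tested members, by family and, within a family, by length-scaled level, in the 3 comparisons. Filled symbols have an unadjusted p under 0.05 and large symbols are called; the 8 Ugt1a genes stand to the right of 0 against db/m, and Ugt2b38, Ugt2b37 and Ugt2b5 stand to the left in the first panel and to the right in the last.

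The counts over members depend on the Ugt1a genes, whose 8 symbols stand for 1 locus with shared reads. Without Ugt1a, 7 of 36 members (19.4%) had an unadjusted p under 0.05 between db/db and db/m mice, beside 13.7% of all genes. In that comparison 5 did not overlap, beside 16.4%. For db/db-dapa versus db/m, 9 of 36 (25.0%) had such a p, beside 18.2%, and 6 did not overlap, beside 28.1%. The median log2 fold change of the 44 members was 0.27 between db/db and db/m mice, and without Ugt1a it was -0.01 over 36 members, beside 0.02 over all genes tested. With db/db-dapa versus db/m it was 0.05 with and -0.01 without Ugt1a, beside -0.02 for all genes. Against db/m, the members other than Ugt1a thus showed no common direction. For db/db-dapa versus db/db the median was -0.05 with and -0.12 without Ugt1a, beside -0.01 for all genes. There 22 of the 36 members other than Ugt1a were lower and 14 higher, beside 7973 lower of all 15583 genes.

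Of the Ugt2b genes, Ugt2b38 was called lower in untreated db/db than in db/m mice. Ugt2b38 (chr5:87409942-87424203 of GRCm38, minus strand) was at 1341, 1790 and 996 CPM in db/m, at 525, 539 and 614 CPM in db/db and at 1011, 754 and 776 CPM in db/db-dapa mice. All db/db mice were below all mice of the other groups. Group means were 1376 ± 398, 559 ± 48.2 and 847 ± 142 CPM in that order of groups (SD, n = 3 each). The log2 fold change between db/db and db/m mice was -1.30 ± 0.23 (SE; adjusted p = 0.0258), the only call among the members in this comparison. Against db/db, the db/db-dapa mice were higher by 0.60 ± 0.23 on the log2 scale, which was not called (adjusted p = 0.854).

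Ugt2b37 (chr5:87240493-87254804) was at 442, 373 and 234 CPM in db/m, at 32.0, 88.4 and 277 CPM in db/db and at 307, 278 and 370 CPM in db/db-dapa mice. The db/db mice differed among themselves by 8.67-fold, and db/db 3 lay within the range of db/m. Its log2 fold change was -1.39 ± 0.56 against db/m (adjusted p = 0.306) and 1.25 ± 0.56 for db/db-dapa versus db/db (adjusted p = 0.854). Ugt2b5 (chr5:87124960-87140318) was at 83, 136 and 79.5 CPM in db/m, 41.5, 28.8 and 90.7 CPM in db/db and 90.1, 96.9 and 110 CPM in db/db-dapa mice, again with db/db 3 beside the other groups. Its log2 fold change was -0.88 ± 0.36 against db/m (adjusted p = 0.316) and 0.87 ± 0.36 for the drug (adjusted p = 0.854).

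Because reads of these copies can be divided between them, their sum is the safer value. Ugt2b5, Ugt2b37 and Ugt2b38 together were at 1866, 2300 and 1310 CPM in db/m, 598, 656 and 982 CPM in db/db and 1408, 1130 and 1255 CPM in db/db-dapa mice. The sum was lower in each db/db mouse than in every mouse of the other groups. With copies summed in the whole table, the log2 fold change was -1.29 ± 0.25 between db/db and db/m mice (adjusted p = 0.041), 0.76 ± 0.25 for db/db-dapa versus db/db (adjusted p = 0.854) and -0.53 ± 0.25 for db/db-dapa versus db/m (adjusted p = 0.285).

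Ugt3a1 and Ugt3a2, which use UDP-N-acetylglucosamine (Ugt3a1) or other UDP-sugars in place of UDP-glucuronic acid, varied by mouse more than by group. Ugt3a2 (chr15:9335550-9370955) was at 1328, 1378 and 867 CPM in db/m, 676, 693 and 1240 CPM in db/db and 1056, 1076 and 1365 CPM in db/db-dapa mice. Ugt3a1 (chr15:9276888-9315032) was at 302, 244 and 187 CPM in db/m, 77.5, 142 and 353 CPM in db/db and 244, 262 and 404 CPM in db/db-dapa mice. In db/db 1 and db/db 2 both genes were below every other mouse, and in db/db 3 both were high. Neither gene was called in any comparison (log2 fold change between db/db and db/m mice -0.45 ± 0.27 for Ugt3a2 and -0.35 ± 0.44 for Ugt3a1).

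**Figure D3:**
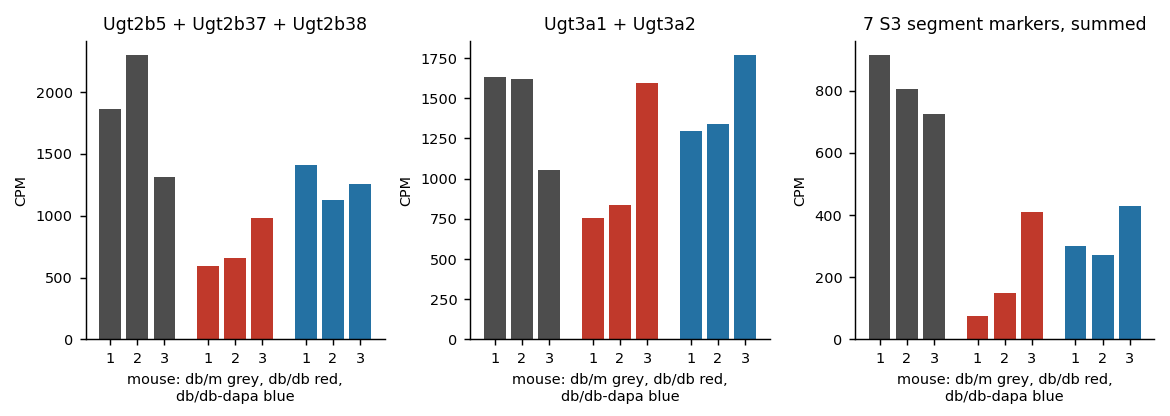
Summed CPM of Ugt2b5, Ugt2b37 and Ugt2b38 (left), of Ugt3a1 and Ugt3a2 (middle) and of the 7 S3 segment markers (right) in each mouse; bars are single mice, grey for db/m, red for db/db and blue for db/db-dapa. In all 3 panels db/db 1 and db/db 2 hold the lowest bars and db/db 3 is the highest of the db/db mice.

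The S3 marker sum followed the same order among the db/db mice (76.5, 149 and 411 CPM) as Ugt2b37 and Ugt3a1, and its part in these values was not tested. The library of db/db 3 decides several calls. Without it, Ugt2b37 was called lower in db/db than in db/m mice with a log2 fold change of -2.52 (adjusted p = 0.00953) and Ugt2b5 with -1.52 (adjusted p = 0.0195). For db/db-dapa versus db/db, 4 members were then called higher: Ugt2b37 with a log2 fold change of 2.39 (adjusted p = 0.0611), Ugt2b5 with 1.52 (adjusted p = 0.0611), Ugt3a1 with 1.47 (adjusted p = 0.0816) and Ugt1a7c with 1.07 (adjusted p = 0.0894). Of all 15519 genes tested without that library, 272 were called in this comparison. As db/db 3 was singled out for its likeness to db/db-dapa 2 and 3, more calls without it were likely from the start. These calls are therefore no separate test of the drug. The call of Ugt2b38 was narrowly lost without db/m 1 (log2 fold change -1.32, adjusted p = 0.101).

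Other Ugt2 genes behaved differently. Ugt2b34 (chr5:86889767-86906937) was at 19.5, 44.5 and 17.8 CPM in db/m, 81.6, 32.4 and 38.2 CPM in db/db and 65.4, 71.3 and 30.7 CPM in db/db-dapa mice. All groups overlapped, and the log2 fold change against db/m was 0.87 ± 0.45 without and 1.03 ± 0.44 with the drug (adjusted p = 0.42 and 0.259). Ugt2a3 was at 4.44 CPM or less in every mouse.

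The Ugt1a locus makes its enzymes by joining one of several first exons to a common set of last exons, so that many reads belong to every member. The members listed in the table lie between 88055388 and 88220002 on the plus strand of chromosome 1 of GRCm38. In the deposited table such reads are divided among the 8 symbols: single values held fractions in 9 of 9 mice, but their sum over the locus was a whole number to within 0.05 counts in 9 of 9 mice. The value of the lowest member was taken as 1 of 8 equal parts of the shared reads, and this part was 77.2, 71.4 and 97.4 CPM in db/m, 85.7, 140 and 145 CPM in db/db and 110, 121 and 136 CPM in db/db-dapa mice. Ugt1a9 was the lowest member in 7 of the 9 mice. All 8 parts together made up between 66.9% and 94.5% of the summed count of the locus. The reads of a member beyond its part are called own reads here. The annotated end of Ugt1a7c, at 88220002, lies beyond those of the other members, at 88218997 to 88219004. Whether own reads of Ugt1a7c came from its first exon or from this further end was not tested.

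Only Ugt1a7c, Ugt1a2, Ugt1a10 and Ugt1a1 had own reads above 5.37 CPM in any mouse. Ugt1a7c was at 144, 195 and 128 CPM in db/m, 204, 231 and 522 CPM in db/db and 322, 479 and 552 CPM in db/db-dapa mice as deposited. All db/m mice were below all others. Its means were 156 ± 35.0, 319 ± 176 and 451 ± 117 CPM (SD, n = 3 each). It was called for db/db-dapa versus db/m, with a log2 fold change of 1.53 ± 0.35 (adjusted p = 0.0922), and not between db/db and db/m mice (1.03 ± 0.35, adjusted p = 0.225).

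The own reads of Ugt1a7c were 67.1, 124 and 30.9 CPM in db/m, 118, 90.4 and 376.5 CPM in db/db and 213, 357 and 416 CPM in db/db-dapa mice. On own reads db/db 2 lay within the range of db/m, whereas all db/db-dapa mice lay above it. With shared reads removed, Ugt1a7c was not called against db/m in db/db-dapa mice (log2 fold change 2.15 ± 0.58, adjusted p = 0.129) or in db/db mice (1.40 ± 0.56, adjusted p = 0.305). The call on the deposited value was also lost without each of the 3 db/m mice, without db/db 2 and without db/db-dapa 2 or 3, with adjusted p between 0.101 and 0.364, so it stands close to the threshold. Lrp2, the endocytic receptor megalin of the proximal tubule, was at 1600 to 2226 CPM in db/m, at 2182, 1646 and 5282 CPM in db/db and at 2531, 3720 and 4974 CPM in db/db-dapa mice, so that the mice with the most Ugt1a7c (db/db 3, db/db-dapa 2 and 3) also had the most Lrp2, while db/db 2 had less Lrp2 than db/m 1 and 2. Among the other proximal tubule markers, Cubn, Slc22a6 and Hnf4a were also highest in db/db 3 and db/db-dapa 2 and 3. Slc34a1, Slc5a2, Slc5a12, Slc22a8, Aqp1 and Miox were not. Slc5a2, for example, was at 759.7 CPM in db/db 3 and at 2124 CPM in db/db 1. The part of Lrp2 and of these markers was not tested.

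Ugt1a2 had few or no own reads in db/m mice. The own reads were 0, 0.611 and 0 CPM in db/m, 6.12, 31.7 and 157.5 CPM in db/db and 5.68, 57.8 and 76.5 CPM in db/db-dapa mice. These are 0, 3.5 and 0 counts in db/m and between 18 and 1247 counts in the diabetic mice, and every diabetic mouse was above every db/m mouse. No fold or test is given, since the own reads of Ugt1a2 passed the filter only through the diabetic mice. The deposited values of Ugt1a2, 77.2, 72.1 and 97.3 CPM in db/m, 91.8, 172 and 303 CPM in db/db and 115, 179 and 212 CPM in db/db-dapa mice, include its part of the shared reads and were not called (log2 fold change 1.21 ± 0.37, adjusted p = 0.183, for db/db, and 1.04 ± 0.37, adjusted p = 0.208, for db/db-dapa mice). The removal of shared reads was chosen after the values had been seen.

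Own reads of Ugt1a10 reached 22.6 CPM and those of Ugt1a1, which encodes the enzyme that conjugates bilirubin, 9.73 CPM, both in db/db 3. In the other members, Ugt1a5, Ugt1a6a, Ugt1a6b and Ugt1a9, nearly all reads were shared, and their log2 fold changes of 0.58 to 0.60 between db/db and db/m mice mostly reflect those reads. Taken as a whole, the locus was at 686 to 825 CPM in db/m, 811, 1250 and 1736 CPM in db/db and 1101, 1405 and 1600 CPM in db/db-dapa mice. The summed locus was not called against db/m in db/db (log2 fold change 0.78 ± 0.26, adjusted p = 0.221) or in db/db-dapa mice (0.90 ± 0.26, adjusted p = 0.157), and db/db 1 lay just under the highest db/m mouse.

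**Figure D4:**
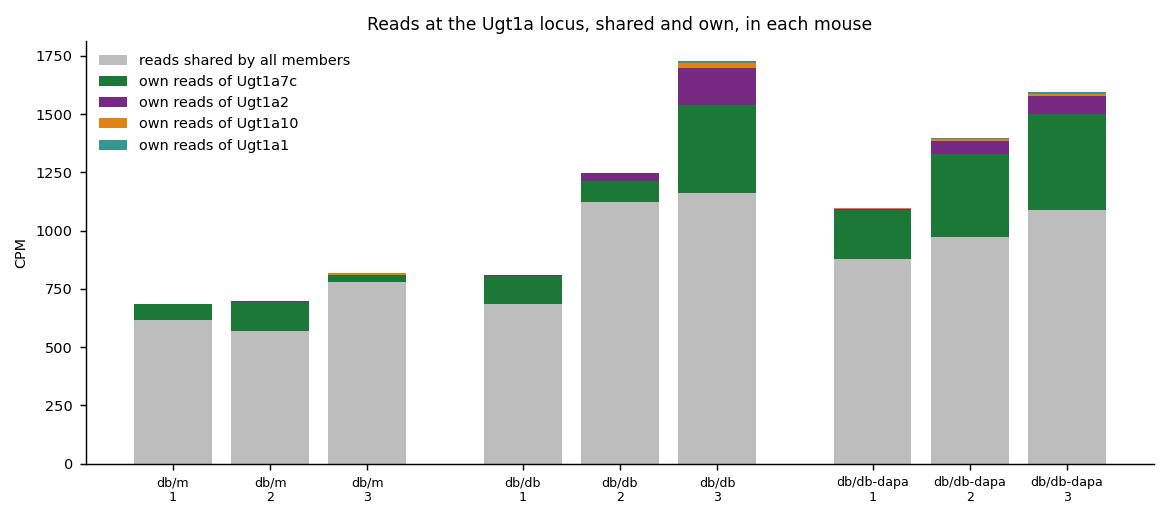
Reads at the Ugt1a locus in each mouse, in CPM: the reads shared by all members (grey, 8 equal parts together) and the own reads of Ugt1a7c (green), Ugt1a2 (purple), Ugt1a10 (orange) and Ugt1a1 (teal). Own reads of the other 4 members, at most 5.37 CPM, are not drawn; the purple part is absent or near absent in all db/m mice and largest in db/db 3.

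Glutathione transferases were mostly even across the groups. Of the 14 with a mean above 50 CPM, Gsta2 ranged 88.5-fold between mice, and the other 13 ranged between 1.47-fold and 2.71-fold. None of the 22 tested was called in any of the 3 comparisons by edgeR, and 3, 5 and 1 of them had an unadjusted p under 0.05, beside 13.7%, 18.2% and 5.19% of all genes. DESeq2 called only Gstm2, for db/db-dapa versus db/m. The abundant Gstm1 was at 276, 232 and 338 CPM in db/m, 182, 378 and 263 CPM in db/db and 236, 269 and 345 CPM in db/db-dapa mice, with log2 fold changes of -0.04 and 0.01 against db/m. Gstm5 lay between 169 and 250 CPM in all mice, and Gstz1, which acts in tyrosine breakdown, between 332 and 590 CPM.

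Gsta2 and Gsta1 showed the largest log2 fold changes between db/db and db/m mice among the tested members, together with large spread. Gsta2 (chr9:78331018-78355788) was at 11.3, 104 and 7.999 CPM in db/m, 90.8, 708 and 131 CPM in db/db and 84.6, 191 and 160 CPM in db/db-dapa mice. The value of db/m 2 lay within the range of the diabetic mice, and db/db 2 stood far above all others. Gsta1 (chr9:78230656-78242684) was at 0.945, 7.15 and 0.667 CPM in db/m, 7.48, 38.8 and 13.5 CPM in db/db and 6.53, 20.5 and 16.6 CPM in db/db-dapa mice, and it made up between 5.21% and 9.67% of the sum of both genes in every mouse. The log2 fold change between db/db and db/m mice was 2.91 ± 0.97 for Gsta2 (adjusted p = 0.222) and 2.75 ± 0.81 for Gsta1 (adjusted p = 0.171), and for db/db-dapa versus db/m 1.81 ± 0.94 (adjusted p = 0.317) and 2.29 ± 0.80 (adjusted p = 0.208). Without db/m 2, both genes were called higher in db/db than in db/m mice (log2 fold change 4.99, adjusted p = 0.0716, for Gsta2 and 4.58, adjusted p = 0.0776, for Gsta1). Values of Gsta1 held fractions, as divided reads do, and the part of Gsta2 reads in them was not tested. With copies summed, both genes together had a log2 fold change of 2.90 ± 0.97 between db/db and db/m mice (adjusted p = 0.22). Hemoglobin transcripts, 4 genes in sum, were at 1450 CPM in db/db 2 and at 417.7 CPM or less in the other mice. Their part was not tested. Gsta3 stayed between 86.9 and 128 CPM in all mice, and Gsta4, which acts on the lipid peroxidation product 4-hydroxynonenal, lay between 6.98 and 31.3 CPM, with a log2 fold change of 0.79 ± 0.45 between db/db and db/m mice.

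Gsto1, an omega-class enzyme that reduces thiol adducts and dehydroascorbate, had tight control values. It was at 46.9, 39.6 and 48.4 CPM in db/m, 57.8, 107 and 75.4 CPM in db/db and 63.2, 70.8 and 62.4 CPM in db/db-dapa mice. Every diabetic mouse was above every db/m mouse. Against db/m, its log2 fold change was 0.84 ± 0.22 for db/db (adjusted p = 0.114) and 0.54 ± 0.22 for db/db-dapa mice (adjusted p = 0.238), and it was called for db/db mice without db/db 1 (1.02, adjusted p = 0.0532). Gsto2 was at 1.56 CPM or less in every mouse.

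Gstt2, of the theta class, was the glutathione transferase with an unadjusted p under 0.05 for db/db-dapa versus db/db. It was at 308, 254 and 363 CPM in db/m, 290, 391 and 205 CPM in db/db and 215, 192 and 196 CPM in db/db-dapa mice. The db/db-dapa mice were below all db/m mice, while db/db 3 lay among them. The log2 fold change was -0.55 ± 0.23 against db/db (adjusted p = 0.854) and -0.62 ± 0.23 against db/m mice (adjusted p = 0.223). Gstt1 lay between 130 and 219 CPM, and Gstt3 between 53.9 and 80.8 CPM, across the 9 mice.

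Gstm2 was at 22.2, 12.7 and 54.7 CPM in db/m, 25.8, 13.01 and 6.95 CPM in db/db and 16.3, 6.56 and 5.77 CPM in db/db-dapa mice. The groups overlapped, and the log2 fold change for db/db-dapa versus db/m was -1.64 ± 0.60 (adjusted p = 0.214). It was highest in db/m 3, the mouse with the most Aqp2 (295.5 CPM, against 40.8 to 203.9 CPM in the others) and the most Slc12a3 of the distal tubule (531.5 CPM, against 171.7 to 320.5 CPM). Across lists, the 4 principal cell markers summed to 216.4 to 707.7 CPM in db/m, 220.7 to 452.7 CPM in db/db and 133.5 to 241.1 CPM in db/db-dapa mice. The part of such transcripts in the value of Gstm2 was not tested. Gstm6, at 1.56 to 2.52 CPM in db/m and 2.72 to 4.73 CPM in db/db-dapa mice, had a log2 fold change of 0.88 ± 0.40 (adjusted p = 0.273).

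The other classes were close between the groups. Gstp1 and Gstp2 together were at 246, 181 and 412 CPM in db/m, 178, 321 and 202 CPM in db/db and 270, 270 and 272 CPM in db/db-dapa mice, and Gstp1 held 59.3% to 64.3% of the sum in every mouse. For the sum, the log2 fold change was -0.26 ± 0.30 without and -0.04 ± 0.30 with the drug versus db/m. The mitochondrial and peroxisomal Gstk1 lay between 67.2 and 111 CPM. The membrane enzyme Mgst1 was at 58.1, 61.8 and 58.9 CPM in db/m and at 82.3, 76.0 and 69.7 CPM in db/db mice, without overlap, but it was not called (log2 fold change 0.35 ± 0.19, adjusted p = 0.437), and at 74.8, 46.6 and 61.7 CPM in db/db-dapa mice. Mgst3, which also takes part in leukotriene synthesis, lay between 71.5 and 132 CPM.

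**Figure D5:**
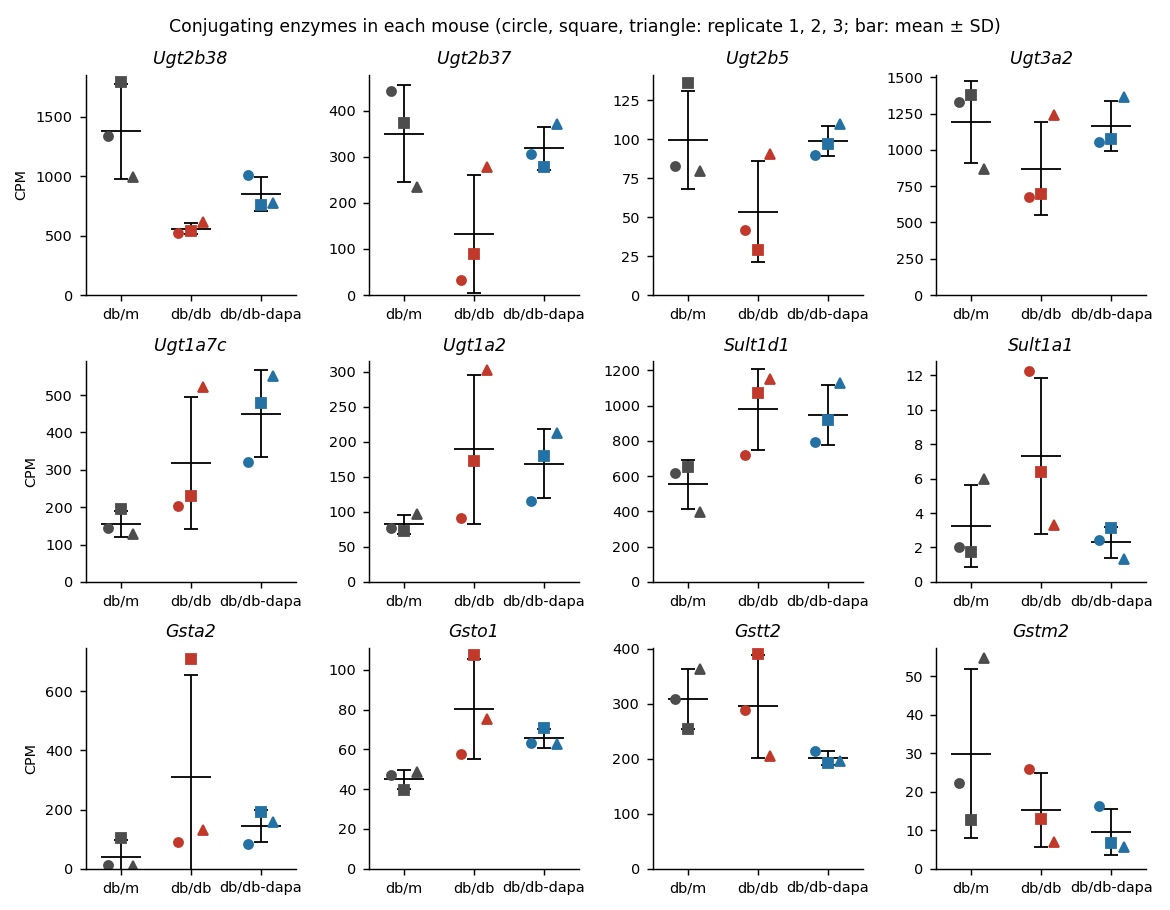
CPM of 12 members in each of the 9 mice (linear axes from 0); symbols give replicates 1, 2 and 3, horizontal bars the group mean and vertical bars ± 1 SD, which for Gsta2 reaches below 0 and is clipped there. Ugt2b38 is lowest in all db/db mice, Sult1d1 and Gsto1 are lowest in all db/m mice, and a single db/db mouse stands apart for Ugt2b37, Ugt3a2 and Gsta2.

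Among the sulfo transferases, Sult1d1 made up most of the measured level. It lies on chr5:87554645-87569027, the minus strand, beyond the Ugt2b genes. Sult1d1 was at 616, 653 and 394 CPM in db/m, 719, 1072 and 1150 CPM in db/db and 793, 919 and 1130 CPM in db/db-dapa mice. Every diabetic mouse was above every db/m mouse. Against db/m, the log2 fold change was 0.82 ± 0.25 in db/db (adjusted p = 0.18) and 0.77 ± 0.25 in db/db-dapa mice (adjusted p = 0.184), and -0.05 ± 0.25 between the diabetic groups, none of them called.

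Sult1c2 was the second sulfo transferase by level and the most even, at 152 to 197.5 CPM in the 9 mice. Sult1a1, the main phenol sulfotransferase of liver, was low here. It was at 2.05, 1.75 and 6.00 CPM in db/m, 12.2, 6.40 and 3.28 CPM in db/db and 2.41, 3.15 and 1.36 CPM in db/db-dapa mice, all db/db-dapa mice being below all db/db mice. The log2 fold change for the drug was -1.61 ± 0.60 (adjusted p = 0.854). Sult1a1 overlaps Ccdc101 on the opposite strand, which averaged 9.82 CPM, and whether the counting used strand is not given in the sources used here, so the value of Sult1a1 is uncertain. Sult1b1 lay between 5.81 and 8.71 CPM. Sult2a3 was at 3.56 CPM in db/m 3 and at 0.400 CPM or less in the other mice, and Sult2b1 and Sult5a1 were at 1.36 CPM or less in every mouse, so their log2 fold changes rest on a few counts.

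Other genes of the conjugation pathways were taken from 6 lists by symbol, of which 73 of 76 symbols were in the table and all 73 were tested. Between db/db and db/m mice 5 were called, 2 higher and 3 lower, and 22 had an unadjusted p under 0.05 (9 higher, 13 lower), beside 1.26% and 13.7% of all genes. For db/db-dapa versus db/m 5 were called, 2 higher and 3 lower, and 20 had an unadjusted p under 0.05, beside 1.05% and 18.2%. With the drug (db/db-dapa versus db/db) 0 were called by edgeR or by DESeq2, and 7 had an unadjusted p under 0.05, beside 5.19% of all genes. The median log2 fold changes were 0.02, 0.05 and 0.13.

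The called genes that were lower were Acy3, Inmt, Ggct and Ccbl1. Acy3, an aminoacylase that removes the acetyl group from mercapturates, was at 3015, 2464 and 3414 CPM in db/m, 558, 918 and 899 CPM in db/db and 1340, 1056 and 1220 CPM in db/db-dapa mice, with groups that did not overlap. Its log2 fold change was -1.90 ± 0.23 for db/db (adjusted p = 0.00461) and -1.30 ± 0.23 for db/db-dapa versus db/m (adjusted p = 0.0397), and 0.61 ± 0.23 for the drug (adjusted p = 0.854). Inmt, an indolethylamine methyltransferase, fell in both diabetic groups, with log2 fold changes of -1.42 ± 0.23 (adjusted p = 0.0148) and -1.14 ± 0.22 (adjusted p = 0.0585). Ccbl1, a cysteine conjugate beta-lyase that turns some glutathione conjugates into reactive thiols, was called in db/db-dapa mice (-1.31 ± 0.28, adjusted p = 0.0747). In db/db mice it was also lower, at -1.09 ± 0.28, but not called (adjusted p = 0.112). Ggct, a gamma-glutamylcyclotransferase of glutathione breakdown, was called in db/db mice (-1.60 ± 0.32, adjusted p = 0.0427). In db/db-dapa mice it was also lower, at -1.07 ± 0.30, but not called (adjusted p = 0.144). Both genes were below all db/m mice in every diabetic mouse. Ggt1, the brush border enzyme that opens glutathione, was at 1370 to 2158 CPM in db/m and at 535 to 1035 CPM in db/db mice but was not called (-1.03 ± 0.26, adjusted p = 0.112).

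The called genes that were higher were an exporter and a regulator. Abcc4, an apical exporter of organic anions and conjugates, was at 32.3, 49.4 and 26.9 CPM in db/m, 72.1, 78.0 and 114.6 CPM in db/db and 75.5, 91.6 and 91.6 CPM in db/db-dapa mice. Its log2 fold change was 1.29 ± 0.25 (adjusted p = 0.0412) in db/db and 1.25 ± 0.25 (adjusted p = 0.0621) in db/db-dapa mice. Nr1i2, which encodes the xenobiotic receptor PXR, was at 4.57, 7.33 and 8.44 CPM in db/m, 15.6, 16.8 and 14.4 CPM in db/db and 15.2, 20.0 and 16.0 CPM in db/db-dapa mice, with log2 fold changes of 1.21 ± 0.26 (adjusted p = 0.0656) and 1.34 ± 0.26 (adjusted p = 0.0549). Of 22 alternatives, 7 lost the call of Nr1i2 and 3 that of Abcc4 in db/db mice. In db/db-dapa mice 4 lost the call of Nr1i2 and 4 that of Abcc4. Abcc2, the other apical exporter of conjugates, was at 163.1 to 273.2 CPM in db/m, 241, 368 and 823 CPM in db/db and 401, 713 and 885 CPM in db/db-dapa mice (1.52 ± 0.43 for db/db-dapa versus db/m, adjusted p = 0.143). Abcc6, another exporter of the same family, passed the threshold on adjusted p in db/db mice but was under that on fold (0.76 ± 0.17, adjusted p = 0.072).

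By list, the 16 genes of glutathione supply and turnover held 1 called gene (Ggct, lower in db/db) and had a median log2 fold change of 0.01 between db/db and db/m mice, and Gclc, the rate-limiting enzyme of glutathione synthesis, was at -0.05 ± 0.26. The 7 genes of UDP-glucuronate supply and the 12 of sulfate activation and removal held none, with medians of 0.02 and 0.17, and Papss1, which makes the sulfate donor, had the smallest p of the latter (-0.59 ± 0.17, adjusted p = 0.167). The 9 exporters had a median of 0.76, with 4 of 9 at an unadjusted p under 0.05, all higher in db/db, beside 13.7% of all genes. The 16 genes of the mercapturate pathway and other conjugation had a median of -0.29, with 6 of 16 at an unadjusted p under 0.05, all lower, beside the same 13.7%. The 13 regulators had a median of 0.06, and Nfe2l2, which encodes NRF2, lay between 75.0 and 92.8 CPM in all mice.

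Further genes with the smallest p of their lists were not called. Against db/m, Gsr, which regenerates reduced glutathione, was at 0.78 ± 0.20 on the log2 scale in db/db-dapa mice (adjusted p = 0.112). The UDP-sugar transporter Slc35d1 was at 0.97 ± 0.40 in db/db and 1.05 ± 0.40 with the drug, and the glucuronidase Gusb at -0.30 ± 0.17 and -0.34 ± 0.17. The sulfatase Arsa was at 0.64 ± 0.22 in db/db mice, and the anion exchanger Slc26a6 at 0.86 ± 0.30 with the drug. In the comparison of db/db-dapa with untreated db/db mice, the exporters Abcc6 and Abcg2 had log2 fold changes of -0.61 ± 0.17 and 0.48 ± 0.18, the prostaglandin synthase Hpgds of -2.34 ± 0.75 and the regulator Keap1 of 0.23 ± 0.20. Cbs and Lap3 of glutathione supply and turnover were at 0.42 ± 0.17 and 0.47 ± 0.22, Ugp2 and Ugdh of UDP-glucuronate supply at 0.31 ± 0.17 and 0.38 ± 0.29, and Suox and Arsb of sulfate handling at 0.37 ± 0.21 and 0.39 ± 0.25, each with an adjusted p of 0.854.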

How the data were processed

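RNA of sorted tdTomato-positive cells was analysed from 9 mice, 3 in each group. The authors prepared stranded poly(A) libraries and sequenced single-end reads of 101 bases. The submitters' processing notes name TopHat2 2.0.13, Bowtie2 2.2.3, SAMtools 0.1.19, Cufflinks 2.2.1 and mm10. Although its name says FPKM, the deposited table holds estimated counts (85.9% of values above 0 are whole), which were rounded here. How these estimated counts were made by the authors, and whether strand was used, is not given in the sources used here. Reads of near-identical copies appear as divided values.

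Genes at 0.3 CPM or more in at least 2 of 9 mice (15583) entered edgeR 4.0.16 in R 4.3.3 (quasi-likelihood F-test in its earlier form, TMM, 1 fit of all mice). P-values were adjusted by Benjamini-Hochberg over all genes, and calls needed an adjusted p below 0.1 with a log2 fold change above 1 in size. limma 3.58.1 and DESeq2 1.42.0 were alternatives. SE were derived from the F value. On simulated counts for db/db against db/m, edgeR called 176 of 200 genes changed 4-fold and 62 of 200 changed 2-fold. The changed genes had a mean above 1 CPM, and the simulated spread followed its trend over level. Neither gene-specific spread nor a deviating mouse was simulated, so fewer may be recovered among genes with more spread.

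Coordinates and coding sequences are from GENCODE (GRCm38), in which all 63 members matched, and promoters from RefSeq (GRCm38.p6). Copy identity was to be computed on proteins, for which coding nucleotides were used. Own reads of a Ugt1a member are its value less that of the lowest Ugt1a member in the same mouse. Members and lists were chosen with earlier results of these data known, and no test over a list was made. Members named are those called, those with an unadjusted p under 0.05 and the 2 with the highest length-scaled level of each family; of the other pathway genes, those called and the 2 with the smallest p in each list, apart from items that are not reported here. Gsta3, Gsta4, Gsto2, Gstt3, Ugt2a3, Sult1b1, Sult2b1, Sult5a1, Gclc and Nfe2l2 were named in addition.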

Additional observations from a re-analysis of the deposited data

How the results depend on the processing

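Of 47 single-gene log2 fold changes, 47 kept their direction under every alternative that gave a value, which was 22 alternatives for 44 of them and 1 fewer for 3 (Ugt1a9 in both comparisons against db/m, Sult2a3). The 47 were picked by the main fit: members with an unadjusted p under 0.05 and other pathway genes that were called. They include the Ugt1a symbols with shared reads. Since the alternatives use mostly the same mice, a kept direction was likely from the start and is no separate test. The 1 member called between db/db and db/m mice became 3 with DESeq2 (Ugt2b38, Ugt1a7c, Ugt1a2), 2 with shared Ugt1a reads removed (Ugt1a2 then passed the filter only through the diabetic mice) and between 0 and 3 when single mice were left out. The 1 member called for db/db-dapa versus db/m became 3 with DESeq2 and with only the 2 groups compared in the fit, 0 with copies summed and between 0 and 3 when single mice were left out. For db/db-dapa versus db/db 0 became 4 at most, without db/db 3. Of the other pathway genes, 5 called between db/db and db/m mice became 2 with only the 2 groups compared and between 2 (without db/m 1) and 6 (without db/db 3) with single mice left out, 5 called for db/db-dapa versus db/m became 10 and between 0 (without db/db-dapa 2 or 3) and 10 (without db/db 3), and 0 called for the drug became 2 at most, without db/db 3. With the replicate number as a block, 3 members were called between db/db and db/m mice (Ugt2b38, Gsta1, Gsta2) and 3 for db/db-dapa versus db/m (Ugt1a7c, Gsta1, Gsta2). The numbers did not pair the mice: deviations of same-numbered mice correlated between -0.323 and 0.563. Over all genes, the 197 calls between db/db and db/m mice became 363 with DESeq2, 114 with only the 2 groups compared and between 84 (without db/m 1) and 230 (without db/db 3) with single mice left out, with 112 without db/db 2 and 126 without db/m 3. The 164 calls for db/db-dapa versus db/m became 507 with DESeq2, 626 with only the 2 groups compared, 275 without a filter and between 14 (without db/db-dapa 2) and 662 (without db/db 3) with single mice left out. For the drug, DESeq2 called 13 genes. Scaling to a common total moved the median of all genes to 0.13 between db/db and db/m mice and turned 86 higher and 111 lower calls into 141 and 93, with Ugt2b38 still called lower. The causes were not tested. With 3 mice a group and 2733349 counts in the smallest library, changes of low genes were not detectable.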
